A study of Mus musculus with 5 samples.

Results

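Cells with a high and cells with a low level of 5 immediate early transcripts were compared within the Collagen I plates of a single-cell series. Each kept well received a score, the summed count of Fos, Fosb, Egr1, Jun and Atf3 per 10,000 counts of the well, and the wells in the highest 25% and in the lowest 25% by this score were taken within each plate. This gave 111 immediate-early-high and 111 immediate-early-low wells, 58 of each from Collagen I replicate 1 and 53 of each from replicate 3. These 222 wells are part of 445 kept Collagen I wells and of 1255 kept wells in the series. The groups were thus chosen by the measured levels of the 5 genes, and the levels of those genes are a description of the choice. All other genes were compared as sums of counts per plate and group, with the plate as the replicate.

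The cells came from MMTV-PyMT organoids, 3D cultures of mouse mammary tumors in which the mouse mammary tumor virus promoter drives expression of polyoma middle T, a viral oncogene, in mammary epithelial cells. The organoids of both groups and of both matrices carried this transgene and were cultured in BME, a basement membrane extract, with FGF2 in the medium, before they were moved to fresh BME or to fibrillar Collagen I for 5 days. They were then released from the gel with Collagenase I and Dispase II, dissociated with trypsin-EDTA, sorted as live single cells into 384-well plates and sequenced by SORT-seq, a method that counts the 3′ ends of transcripts with molecular barcodes. Plates analysed here were 2 of Collagen I (replicates 1 and 3) and 3 of BME, out of 3 per matrix in the study. The labels do not say whether plates came from separate cultures, so the spread between these plates may be technical. With the plate as a block, the p-values measure the spread of the high-to-low difference over plates, not that between plates. This spread is estimated with the help of all genes, since 2 plates give little of it for a single gene.

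Immediate early genes are switched on within minutes of a stimulus, without new protein synthesis. This happens when signalling pathways such as ERK, p38 and RhoA act on transcription factors that already sit on their promoters. Among these are the serum response factor and CREB. Their products include the Fos and Jun proteins, which pair to form the AP-1 transcription factor, the zinc finger factors of the EGR family, and brakes such as the mRNA-degrading protein Zfp36. In epithelium they respond to growth factors, stretch and wounding, and the enzymatic release of cells from a tissue is itself known to induce them.

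Promoters of 4 score genes and of 3 genes outside the score are shown here because these are the transcripts that define the groups or that were higher together with them. The sequences are the RefSeq windows of build GRCm38.p6 from 250 bases before to 50 bases after the transcription start, written 5′ to 3′ in the direction of the gene. Capitals mark TGACG, the short form of the cAMP response element, its 8-base relative TGACNTCA, the EGR site GCGNGGGCG and the CArG box of the serum response factor. Both strands were searched, so that CGTCA is a short form on the other strand, and TGACNTCA holds a short form where its open base is G.
Fos, chr12:85473640-85473939, plus strand: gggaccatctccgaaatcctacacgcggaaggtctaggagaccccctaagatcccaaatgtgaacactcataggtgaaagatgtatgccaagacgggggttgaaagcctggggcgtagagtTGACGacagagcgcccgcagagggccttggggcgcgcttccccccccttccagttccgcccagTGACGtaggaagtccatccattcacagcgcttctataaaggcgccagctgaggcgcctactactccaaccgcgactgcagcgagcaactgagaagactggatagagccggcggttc
Fosb, chr7:19309996-19310295, minus strand: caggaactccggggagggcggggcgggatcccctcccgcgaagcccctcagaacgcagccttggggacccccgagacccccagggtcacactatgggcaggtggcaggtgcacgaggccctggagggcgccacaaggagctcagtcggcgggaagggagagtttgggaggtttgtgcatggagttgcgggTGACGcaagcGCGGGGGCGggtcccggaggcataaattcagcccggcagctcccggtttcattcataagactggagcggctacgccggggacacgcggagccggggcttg
Jun, chr4:95052173-95052472, minus strand: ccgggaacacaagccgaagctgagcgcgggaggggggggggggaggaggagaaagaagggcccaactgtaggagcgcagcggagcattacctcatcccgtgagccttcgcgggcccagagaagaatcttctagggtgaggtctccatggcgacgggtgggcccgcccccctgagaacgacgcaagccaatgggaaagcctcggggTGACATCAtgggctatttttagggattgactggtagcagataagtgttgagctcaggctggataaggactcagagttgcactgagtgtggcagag
Atf3, chr1:191183284-191183583, minus strand: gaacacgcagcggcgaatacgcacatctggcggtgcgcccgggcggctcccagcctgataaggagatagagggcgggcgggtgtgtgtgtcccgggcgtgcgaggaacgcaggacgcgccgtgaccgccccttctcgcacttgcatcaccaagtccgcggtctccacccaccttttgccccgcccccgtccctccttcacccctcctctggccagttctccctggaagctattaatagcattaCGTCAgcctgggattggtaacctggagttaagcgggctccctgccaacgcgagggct
Zfp36, chr7:28379179-28379478, minus strand: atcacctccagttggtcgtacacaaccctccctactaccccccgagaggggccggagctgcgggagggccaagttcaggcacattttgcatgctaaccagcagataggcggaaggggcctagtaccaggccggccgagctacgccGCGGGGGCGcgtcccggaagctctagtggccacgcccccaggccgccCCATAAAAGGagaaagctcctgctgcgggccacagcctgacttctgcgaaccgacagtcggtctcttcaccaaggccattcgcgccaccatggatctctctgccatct
Nr4a1, chr15:101266596-101266895, plus strand: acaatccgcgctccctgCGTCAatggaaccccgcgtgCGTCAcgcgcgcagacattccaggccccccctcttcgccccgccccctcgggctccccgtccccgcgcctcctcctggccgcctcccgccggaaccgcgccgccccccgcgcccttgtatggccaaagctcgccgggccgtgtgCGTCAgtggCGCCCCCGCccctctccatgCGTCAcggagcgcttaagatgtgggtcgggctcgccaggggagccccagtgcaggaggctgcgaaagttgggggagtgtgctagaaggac
Klf6, chr13:5861239-5861538, plus strand: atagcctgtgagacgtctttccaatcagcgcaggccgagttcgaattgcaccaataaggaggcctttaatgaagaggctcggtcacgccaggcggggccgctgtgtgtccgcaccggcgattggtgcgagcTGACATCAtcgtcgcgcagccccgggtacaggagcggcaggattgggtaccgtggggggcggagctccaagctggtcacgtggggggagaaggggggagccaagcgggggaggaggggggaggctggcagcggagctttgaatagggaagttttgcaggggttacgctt

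The Fos window held a short form 129 and another 66 bases before the start. In the Fosb window a short form began 60 and an EGR site 50 bases before the start. Jun had the 8-base form 45 bases before the start and Klf6 had it 119 bases before. Zfp36 held a CArG box 58 bases and an EGR site 105 bases upstream, and Nr4a1 held 4 short forms and an EGR site. Windows of Col17a1 and Krt14, which were higher in the high wells as well, were also searched and held none of these sites. That of Junb held a short form, and these windows are not shown. The Krt14 window, chr11:100205981-100206280 on the minus strand, lies inside the annotated gene. That gene reaches to 100207548, so its outermost start was not searched. Windows of Atf3, Zfp36 and Nr4a1 also lie inside the annotated spans of these genes. The short form is common, with a match in 20.8% of all promoter windows of the table. The 8-base form was in 8.83% of windows, the EGR site in 5.55%, the CArG box in 1.63% and TGANTCA, the AP-1 element, in 7.81%. Among the genes that were higher in the high wells (below), 8 of 151 with a window held a CArG box (5.30%), against 72 of 3538 genes tested (2.04%). TGANTCA was found in 14 of these 151 (9.27%) and in 192 of the 3538 (5.43%). TGACG went the other way, with 43 of 151 (28.5%) against 1384 of 3538 (39.1%). The 8-base form was in 20 (13.2%) against 301 (8.51%), and the EGR site in 24 (15.9%) against 514 (14.5%). These matches describe letters in short windows and say nothing of binding.

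The score separated the wells in Collagen I as a continuous range. In replicate 1 the lowest high well had 14.384 score counts per 10,000 and the next well below it 14.368, while the highest low well had 3.413 and its neighbour above 3.453. The corresponding values in replicate 3 were 23.175 and 22.782 at the upper bound, and 5.365 and 5.508 at the lower. The choice rests on few molecules, with a median of 11 and 14 score counts per high well and at most 5 and 6 in a low well, and 16 and 20 of the low wells had none. Median scores of the high wells were 20.3 and 32.6, compared with 1.73 and 2.78 in the low wells. In the 3 BME plates, grouped by the same rule, the high wells had medians of 4.99, 7.53 and 7.71. All 3 lie below the lowest high well of either Collagen I plate, but each matrix sat on its own plates, so that matrix and plate cannot be told apart in such levels.

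**Figure D1:**
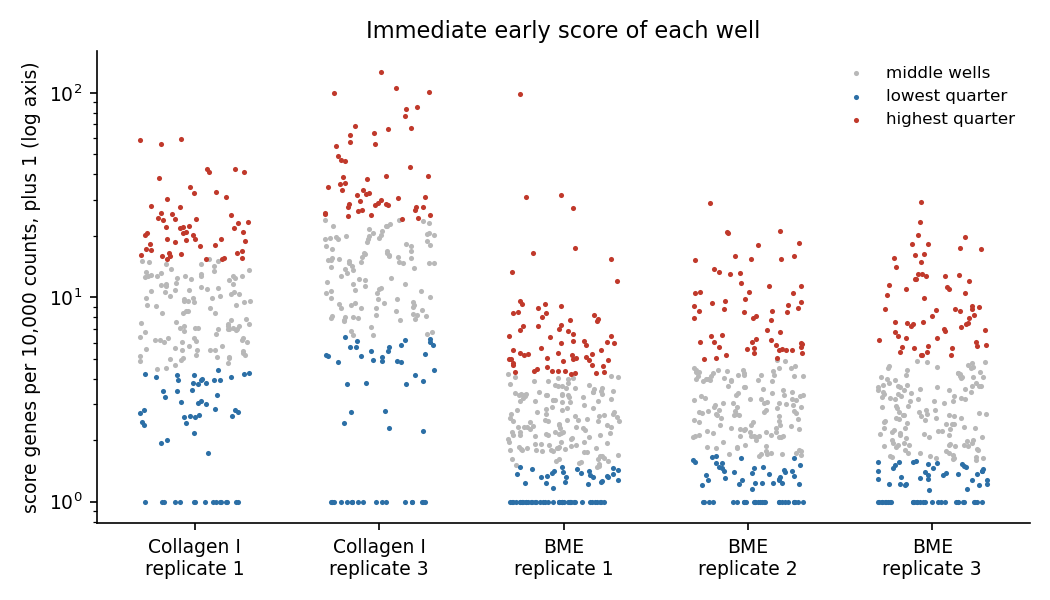
Each point is 1 well, placed by its score (score genes per 10,000 counts, plus 1, on a log axis) in its plate, with the highest 25% in red, the lowest in blue and the middle wells in grey. The scores form a continuous range in every plate, and the high wells of Collagen I start at 14.384 and 23.175, above most high wells of BME.

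Each of the 5 transcripts contributed to a different degree. Levels are given in CPM, the counts of a gene in the summed wells per 1e6 counts of that sum,, for replicate 1 and then replicate 3. Fos, the AP-1 subunit, had 809.8 and 1352 CPM in the high wells and 39.8 and 25.0 in the low wells. Jun, its partner, had 669.4 and 1135 against 49.7 and 75.0. Egr1, a zinc finger factor induced by ERK, had 525.7 and 716.9 against 74.6 and 116.7. The ratio of high to low was 20.4 and 54.0 for Fos and 13.5 and 15.1 for Jun, but 7.05 and 6.14 for Egr1, which was also found in 43.1% and 39.6% of the low wells. Fosb, the second Fos protein, had 251.4 and 890.1 CPM against 2.49 and 33.4. Atf3, a stress-induced factor of the ATF family, was barely sampled, with 2 and 9 counts in the high wells and 0 in the low wells, so the score is in practice that of the other 4 genes.

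To ask whether the score genes moved together, each gene in turn was left out of the score and measured between wells grouped by the other 4. In such groups Fos had 656.0 and 1180 CPM in the high wells and 112.2 and 185.9 in the low wells, a log2 fold change of 2.55 ± 0.18 (SE, n = 2 plates; adjusted p = 4.22e-07, edgeR). Fosb had 229.8 and 709.3 CPM against 14.9 and 65.2, with a log2 fold change of 3.56 ± 0.31 (adjusted p = 2.9e-26). Jun was higher by 1.96 ± 0.20 (adjusted p = 3.48e-20), with 426.8 and 1046 against 151.7 and 181.9 CPM. Egr1 showed the smallest log2 fold change, 0.99 ± 0.19 (adjusted p = 0.0438), with 367.0 and 533.0 against 205.2 and 218.6 CPM. Among all genes of those fits, 3.55% (Fos left out), 7.18% (Fosb), 6.52% (Jun) and 1.46% (Egr1) passed the threshold. Atf3 did not pass the filter on low counts and has no value. The same 4 genes passed in BME, with log2 fold changes from 1.35 for Egr1 to 2.77 for Fosb. With the plate left out of the model, Fosb (adjusted p = 0.302) and Jun (adjusted p = 0.383) no longer passed in Collagen I. In BME 3.69% (Fos left out), 7.27% (Fosb), 3.16% (Jun) and 0.503% (Egr1) of genes passed, and with Atf3 left out 7.99% passed in Collagen I and 6.4% in BME. Across single wells the rank correlations between pairs of score genes ran from -0.004 to 0.436 in Collagen I (median 0.196), a description over wells that share a plate and hold few counts per gene.

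The groups also differed in properties of the wells. Total counts per well were lower in the high wells, with medians of 4824 and 3230 compared with 6204 and 3831 in the low wells. The median share of counts from chromosome M was 6.52% and 7.82% in the high wells and 7.78% and 10.8% in the low wells. Rn45s, the ribosomal RNA precursor, took 4.73% and 6.19% against 4.11% and 7.47%, which is a difference in opposite directions in the 2 plates. High wells had higher well numbers, with 40 of 58 and 33 of 53 beyond the middle of the plate, compared with 29 and 28 of the low wells. The part of these properties in the results was not tested, other than by the groupings described with the results.

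Apart from the score genes, 4606 genes had enough counts to be tested in Collagen I, and 378 of them (8.21%) differed between high and low wells at an adjusted p under 0.05, with 194 higher (4.21%) and 184 lower (3.99%). Among the lists described below, 7 of 10 basal markers, 12 of 23 actin genes, 12 of 26 extracellular matrix genes, 11 of 25 other immediate early genes and 5 of 25 hypoxia genes were higher. Lower genes made up 25 of 29 in the G2/M list, 9 of 13 mitochondrially encoded genes, 7 of 11 S-phase genes and 4 of 11 luminal markers. The log2 ratios of the 2 plates had a Pearson correlation of 0.37 over the 4606 genes, which are not independent replicates, and 372 of the 378 genes had the same sign in both plates. The number of calls differed between analyses of these 4 sums. DESeq2 called 18 of the 378, and no gene passed in edgeR when every well was thinned to 2000 counts, where 222 of 2013 genes had an unadjusted p under 0.05. Without replicate 1, 10 genes were called, and without replicate 3, 27 genes. In these fits all but a few genes kept their sign, with 378 of 378 in DESeq2, 250 of the 252 that remained tested after thinning, 376 of 378 without replicate 1 and 374 of 375 without replicate 3. Of the 79 called genes that the naming rule picked, 4 passed without replicate 1 and 9 without replicate 3, with Zfp36 and mtCo3 in both fits, and 23 moved their log2 fold change by over 1.5 times.

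Of the AP-1 and EGR family outside the score, 3 of 8 tested members were higher and none was lower, with a median log2 fold change of 0.72, compared with -0.01 over all genes tested. Junb, a Jun protein that tempers c-Jun, had 744.5 and 697.6 CPM in the high wells and 355.6 and 341.9 in the low wells, a log2 fold change of 1.00 ± 0.17 (adjusted p = 9.46e-07). Jund had 372.2 and 514.8 against 196.4 and 154.3 CPM (1.22 ± 0.21, adjusted p = 9.12e-07). For both genes the lowest high sum lay above the highest low sum, and the sums of the groups did not overlap in either direction for 45.7% of all genes tested. Fosl2, a Fos-related AP-1 subunit, was higher by 1.18 ± 0.39 (adjusted p = 0.0317), whereas Egr2 had 1.39 ± 0.58 and did not pass (adjusted p = 0.13).

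Among other immediate early genes, 11 of 25 tested members were higher, none was lower, and the median log2 fold change was 0.58. Zfp36, which binds AU-rich elements and speeds the decay of such mRNAs, had 320.0 and 461.9 CPM in the high wells and 92.0 and 95.9 CPM in the low wells. Its log2 fold change of 1.95 ± 0.25 had an adjusted p of 1.96e-12. It was detected in 40 of 58 and 41 of 53 high wells, compared with 25 of 58 and 17 of 53 low wells, and its difference passed in 25 of 27 alternative analyses. Klf6, a zinc finger factor, had 277.6 and 303.1 against 106.9 and 75.1 CPM (1.57 ± 0.27, adjusted p = 5.57e-07). Both genes rose at every step from the lowest to the highest of 4 equal classes of wells by score in both plates, Zfp36 from 92.0 over 138.6 and 184.4 to 320.0 CPM in replicate 1. Nr4a1, an orphan nuclear receptor, had the largest log2 fold change among the higher genes that the rule named outside the score (3.11 ± 0.69, adjusted p = 3.28e-04), but this rests on 18 and 12 counts in the high wells against 3 and 1 in the low wells, and 10 of the 18 counts came from 1 well. Ctgf and Cyr61, secreted matricellular proteins that are targets of both SRF and YAP, were higher by 2.06 ± 0.39 and 1.08 ± 0.21. Neither rose at every step of the score in either plate. In replicate 1 both peaked in the class next to the lowest, with 151.0 CPM for Ctgf and 442.8 for Cyr61. The highest class had 111.0 and 339.6 CPM there. In replicate 3 both peaked in the class next to the highest. Ier2, Btg2, Sgk1, Rhob, Zfp36l1 and Ier3 also passed, and Myc, at 55.5 and 38.5 against 64.6 and 54.2 CPM, did not (adjusted p = 0.681).

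A list of genes known to respond to enzymatic dissociation, after removal of the score genes, held 11 higher and no lower genes among 19 tested, with a median log2 fold change of 0.59. It shares Zfp36, Junb, Jund, Btg2, Ier2, Ier3 and Rhob with the 2 groups above. Its remaining calls included Nfkbia, Hspb1 and Socs3. All cells were released from the gels by enzymes before sorting, so that induction in the organoid and induction during dissociation cannot be told apart.

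The feedback genes of the ERK pathway gave no call. None of 11 tested members passed in either direction, and their median log2 fold change was 0.01. Spry1, an inhibitor of receptor tyrosine kinase signalling, had 6.53 and 19.3 CPM in the high wells against 37.3 and 37.5 in the low wells (adjusted p = 0.129), on few counts. The transcription factor Etv5 had 303.7 and 255.0 against 375.5 and 321.0 CPM (adjusted p = 0.31). Of the EGF ligands, Hbegf had 101.2 and 178.0 against 49.7 and 83.4 CPM and was higher by 1.01 ± 0.31 (adjusted p = 0.0223). In the NF-kB list 1 of 9 members passed, Nfkbia, the inhibitor that NF-kB induces against itself, with 306.9 and 351.2 against 146.7 and 141.8 CPM (1.12 ± 0.23, adjusted p = 9.51e-05). Of the cytokine feedback genes, Socs3 (0.82 ± 0.28) and the oncostatin M receptor Osmr (0.98 ± 0.31) were higher among 8 tested.

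Genes of the actin cytoskeleton and targets of SRF and its cofactor MRTF were higher in 12 of 23 tested cases, with none lower and a median log2 fold change of 0.51. Actg1, cytoplasmic gamma actin, had 6945 and 7005 CPM in the high wells and 4635 and 4845 in the low wells (0.51 ± 0.09, adjusted p = 9.12e-07). Flna, which cross-links actin filaments, was higher by 0.93 ± 0.19, Actn1 by 0.87 ± 0.19 and Cnn2 by 1.16 ± 0.23. Without replicate 1, Flna had 0.62 and Cnn2 0.62. In a YAP/TEAD list 5 of 14 tested genes were higher and none was lower (median 0.59), namely Ctgf, Axl, Igfbp3, Nt5e and Cyr61, of which Ctgf and Cyr61 are also in the immediate early list. Axl, a receptor tyrosine kinase, had 156.7 and 154.0 against 57.2 and 41.7 CPM (1.56 ± 0.32, adjusted p = 6.67e-05).

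**Figure D2:**
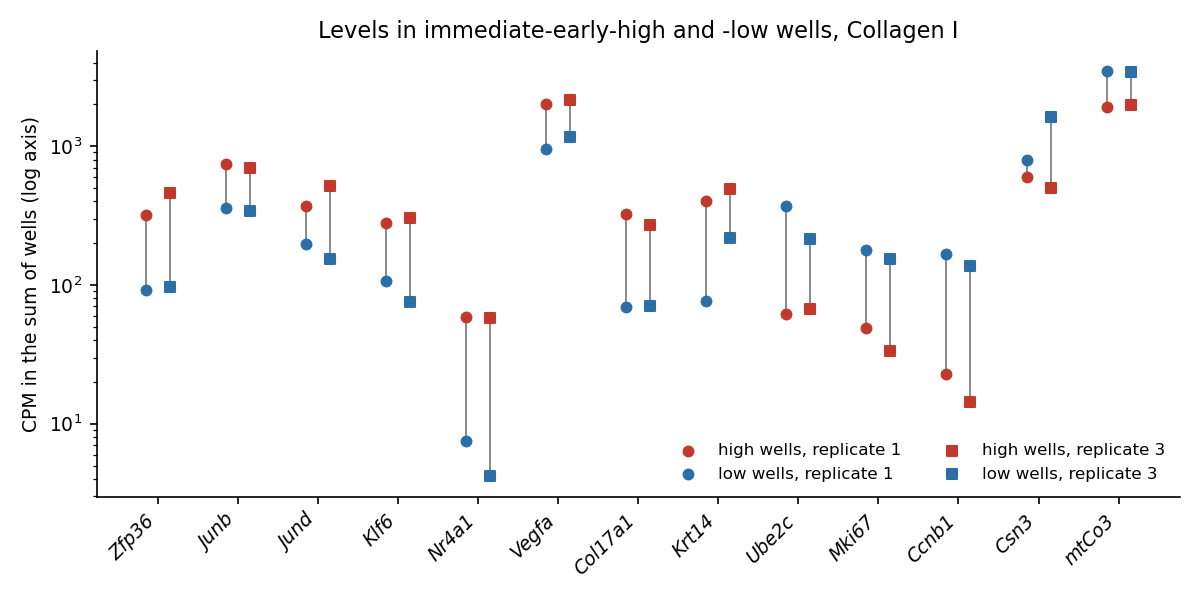
CPM in the summed wells of each group (log axis) for 13 genes outside the score, with red for immediate-early-high and blue for immediate-early-low wells, circles for replicate 1 and squares for replicate 3, and a line joining the groups of 1 plate. From Zfp36 to Krt14 both red symbols lie above both blue ones, and from Ube2c to mtCo3 both lie below. The sums of the groups did not overlap in either direction for 45.7% of all genes tested.

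Hypoxia and glycolysis genes were higher in 5 of 25 tested cases, with none lower and a median log2 fold change of 0.32. Vegfa, the angiogenic growth factor, had 2005 and 2160 CPM in the high wells and 947.4 and 1172 in the low wells, a log2 fold change of 0.94 ± 0.12 (adjusted p = 1.48e-12). It rose at every step of the score in both plates, passed in 24 of 27 alternatives and was among the 18 genes that DESeq2 called. Ndrg1 was higher by 0.84 ± 0.13, the glucose transporter Slc2a1 by 0.79 ± 0.21 and the collagen prolyl hydroxylase P4ha1 by 0.75 ± 0.21. The glycolytic enzyme Ldha, at a log2 fold change of 0.05, and Car9, at 0.24, did not pass.

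Basal cell markers were higher in 7 of 10 tested cases with a median log2 fold change of 1.01. Col17a1, a hemidesmosomal collagen, had 326.5 and 269.4 CPM in the high wells and 69.6 and 70.9 in the low wells (2.05 ± 0.28, adjusted p = 1.05e-10). Krt14, the keratin that marks basal cells, had 404.9 and 490.8 against 77.1 and 216.8 CPM (1.69 ± 0.22, adjusted p = 1.61e-11). Krt17 was higher by 1.41 ± 0.26, and Snai2, a transcription factor of basal cells outside this list, by 2.49 ± 0.51 on 27 and 12 counts against 2 and 6. Without replicate 1 the log2 fold changes were 1.06 for Krt14, 1.09 for Snai2 and 0.30 for Sparc, a matricellular protein with 0.98 over both plates, and without replicate 3 they were 2.34, 4.07 and 1.54. The summed basal list had 3683 and 3301 CPM in the high wells and 1455 and 1918 in the low wells. The high group therefore held more basal transcripts in both plates. Over the 4 classes by score in replicate 3, from lowest to highest, Krt14 had 216.8, 484.3, 328.5 and 490.8 CPM. Krt17 had 112.6, 412.4, 209.0 and 240.6 CPM there, so neither rose at every step, whereas Col17a1 did in both plates. Luminal markers moved the other way, with 4 of 11 lower and none higher and a median of -0.53, and their sum was 9025 and 9777 CPM against 11020 and 12104. Csn3, a milk casein, had 600.8 and 500.4 against 798.2 and 1618 CPM (-1.06 ± 0.15, adjusted p = 3.32e-08), with -0.46 without replicate 3, and Lcn2, a secreted iron-binding protein, fell by 0.53 on the log2 scale (SE 0.09). Krt8 and Krt18, which pair in luminal cells, had log2 fold changes of 0.31 and -0.15 and did not pass. In sums of cells, more cells of a type and more RNA per cell cannot be told apart.

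Genes of the extracellular matrix and its receptors were higher in 12 of 26 tested cases, with 1 lower and a median log2 fold change of 0.64. Loxl3, a collagen cross-linking oxidase, had 235.1 and 115.5 CPM in the high wells and 57.2 and 41.7 in the low wells (1.81 ± 0.32, adjusted p = 1.39e-06). The laminin chain Lama3, the integrin subunit Itgb4, the anchoring fibril collagen Col7a1 and the basement membrane collagens Col4a1, Col4a2 and Col18a1 were among the other genes that passed. Without replicate 1, Col18a1 had a log2 fold change of 0.24, compared with 1.80 without replicate 3, and Tnc had 0.12 and 1.73. Spp1, osteopontin, fell by 0.53 on the log2 scale (SE 0.12). In the list of proteases, Mmp13, a collagenase, had 9.80 and 4.81 against 151.7 and 45.9 CPM (-3.78 ± 0.52), but 41 of its 61 counts in the low wells of replicate 1 and 8 of 11 in replicate 3 came from 1 well each.

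The high wells held more basal transcripts than the low wells. The highest and lowest 25% were therefore also taken separately among the wells above and below the median of the summed basal markers. In that grouping 40 of 4614 genes were called higher (0.867%) and 62 lower (1.34%), and of the 79 called genes that the naming rule picked, 38 passed again. There the basal list held 1 higher and 1 lower gene of 11 with a median of 0.25. This list, with Krt14 and Krt17 in it, defined the classes, so its smaller change is in part fixed by the grouping. Zfp36 (1.69), Junb (0.91), Jund (1.01), Klf6 (1.13), Nr4a1 (3.48), Vegfa (0.84) and Actg1 (0.35) remained above the threshold, and 6 of 25 other immediate early genes were still called higher. Krt14 had a log2 fold change of 0.51, Krt17 of 0.04, Snai2 of 0.83 and Jag1, a Notch ligand, of 0.64 instead of 2.27, and none of them passed. Tnc, the matrix glycoprotein tenascin C, went from 1.10 to -0.16, Igfbp3 from 1.46 to -0.56 and the protease Adamts1 from 2.00 to -0.11. Without replicate 1, under the original grouping, Jag1 had 1.09, Igfbp3 0.38 and Adamts1 1.31. Of the actin list, 1 of 23 was called (12 before), and its median was 0.28. In the YAP/TEAD list 2 of 14 were higher (5 before), with a median of 0.31. The dissociation list had 6 higher of 18 (11 of 19 before) and the cytokine feedback genes 0 of 7 (2 of 8 before). Of the extracellular matrix list, 1 of 26 was higher (12 before) and 1 lower, with a median of 0.24, and Loxl3 had 0.94 (adjusted p = 0.0576, edgeR).

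**Figure D3:**
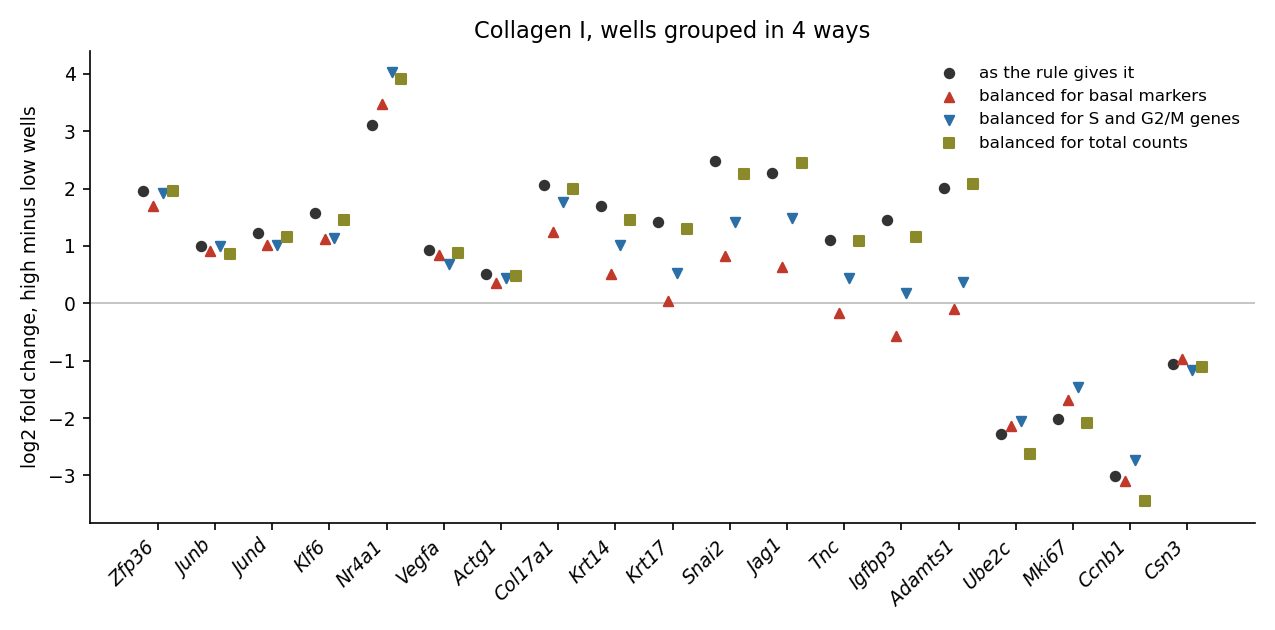
Log2 fold change of 19 genes between high and low wells of Collagen I, with wells grouped by the rule (black circles) or by the same rule within classes of like basal marker content (red triangles), like S and G2/M content (blue triangles) or like total counts (squares). Zfp36 lies between 1.69 and 1.95 in all 4 groupings, whereas Tnc, Igfbp3 and Adamts1 fall to -0.16, -0.56 and -0.11 once basal markers are balanced.

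The largest group of lower genes belonged to the cell cycle. Of 29 tested genes of the G2/M phase, 25 were lower and none was higher, with a median log2 fold change of -1.81. Ube2c, the ubiquitin-conjugating enzyme of the anaphase-promoting complex, had 62.0 and 67.4 CPM in the high wells and 373.0 and 212.6 in the low wells (-2.27 ± 0.29, adjusted p = 3.93e-12). Mki67, the proliferation marker, had 49.0 and 33.7 against 179.0 and 154.3 CPM (-2.02 ± 0.34), and Ccnb1, cyclin B1, had 22.9 and 14.4 against 166.6 and 137.6 (-3.02 ± 0.40). For these genes every low sum was above every high sum, and the sums of the groups did not overlap in either direction for 45.7% of all genes tested. Most wells of either group lacked these transcripts, and Ube2c was detected in 22 of 58 and 15 of 53 low wells and in 12 of 58 and 10 of 53 high wells. In replicate 1 it had 373.0 CPM in the lowest of the 4 classes and 93.1, 57.0 and 62.0 in the next ones, and in replicate 3 it fell at every step.

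In the S-phase list 7 of 11 tested genes were lower, with no higher gene (median -1.32), among them the replicative helicase subunits Mcm5 (-1.95 ± 0.45) and Mcm7 (-1.12) and both subunits of ribonucleotide reductase, Rrm1 and Rrm2. Myc targets and ribosome biogenesis genes were lower in 6 of 18 cases with none higher (median -0.77), including the spermidine synthase Srm (-1.99 ± 0.41, but -1.32 without replicate 1) and nucleolin, Ncl (-0.68 ± 0.19). With the wells ranked separately among those above and below the median of S and G2/M genes, 20 of 4609 genes were called higher (0.434%) and 27 lower (0.586%). Of 28 G2/M genes 3 were then lower, with a median of -1.36, so cycling genes were not fully balanced by 2 classes. Zfp36 (1.92), Junb (1.00), Nr4a1 (4.03), Col17a1 (1.77) and Vegfa (0.68) were among the 20 of the 79 called named genes that passed again in that grouping. Jund (1.02, adjusted p = 0.0761), Klf6 (1.14, adjusted p = 0.0552) and Krt14 (1.01, adjusted p = 0.593) did not (edgeR). Higher genes then made up 4 of 24 in the list of other immediate early genes, 1 of 8 in the AP-1 and EGR family, 1 of 23 in the actin list and 1 of 26 in the extracellular matrix list. They made up 2 of 14 in the YAP/TEAD list, 3 of 18 in the dissociation list and 0 of 7 cytokine feedback genes.

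**Figure D4:**
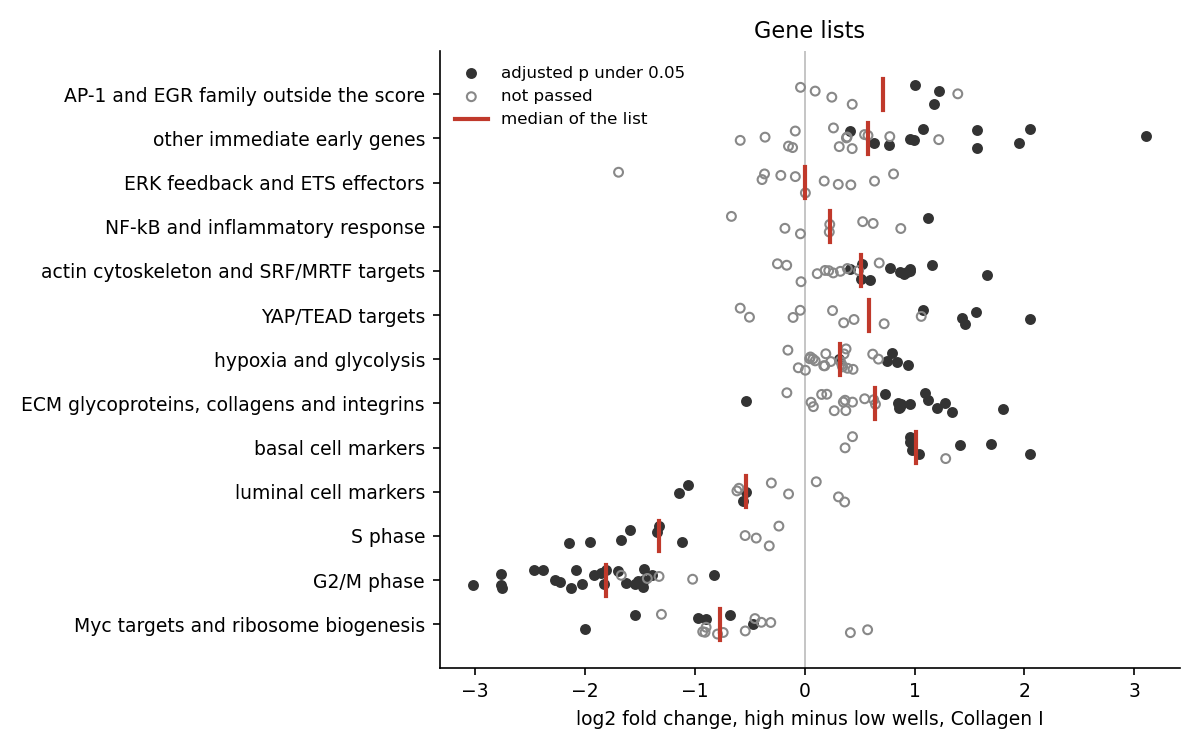
Log2 fold change between high and low wells of Collagen I for the tested genes of 13 lists, filled where the adjusted p is under 0.05, with a red bar at the median of the list. All called members of the immediate early, actin and basal lists lie to the right of 0, those of the luminal, S phase and G2/M lists to the left, and the ERK feedback list has none.

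Mitochondrially encoded protein genes were lower in 9 of 13 cases with a median of -0.46. The gene that the files name mtCo3, a subunit of cytochrome c oxidase, had 1920 and 1982 CPM in the high wells and 3476 and 3448 in the low wells (-0.88 ± 0.10, adjusted p = 1.33e-14), and it fell at every step of the score in both plates. Among wells with under 10% of counts from chromosome M its log2 fold change was -0.38 (adjusted p = 0.371, edgeR). Transcripts of chromosome M enter the total by which the score is divided. Ribosomal protein genes were lower in 7 of 72 cases, with a median of -0.18. Among chaperones, the small heat shock proteins Hspb1 (1.10 ± 0.20) and Cryab (1.67 ± 0.47) were higher, while the ER chaperone Hspa5 (-0.95 ± 0.16) and the mitochondrial Hspd1 (-0.79 ± 0.27) were lower, and the other 9 of 13 did not pass. With basal markers balanced, Hspb1 had 0.32 (adjusted p = 0.562) and Cryab 0.97 (adjusted p = 0.283), and neither passed in edgeR. Without replicate 1, Cryab had 1.09 and Hspa5 -1.42, and without replicate 3 Hspa5 had -0.60. The serine synthesis enzymes Phgdh (-2.04 ± 0.44) and Psat1 (-1.74 ± 0.35, but -0.36 without replicate 1), on the ATF4 list, were lower, whereas Ddit4 was higher by 0.67. Of 7 p53 targets, Cdkn1a, Mdm2 and Perp were higher. None of the 7 was called with basal markers balanced (median 0.22) or with S and G2/M genes balanced (median 0.44). Mdm2 had a log2 fold change of 1.67 without replicate 1 and of 0.70 without replicate 3. Of 10 oxidative stress genes, Txn1 and Prdx1 were lower. In the list of nuclear and ribosomal RNA, Kcnq1ot1 was higher by 0.47 among 5 tested, and Malat1 had 0.31 (adjusted p = 0.0579).

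Immune markers summed to 0 to 4 counts and endothelial markers to 0 to 5 counts in each of the 4 sums, with Lyz2, Itgam, Cdh5 and Vwf at 0 in all of them, and none could be tested. The fibroblast list had 51 to 104 counts per sum, or 169.8 and 264.6 CPM in the high wells against 126.8 and 433.6 in the low wells. Of these, Col1a1 and Col1a2 (111 and 38 counts over the 4 sums) were tested and did not pass. Pdgfra had 35 counts, Postn 28, Dcn 27 and Col3a1 11, and Lum and Pdgfrb were at 0. Dcn, a proteoglycan of connective tissue, had 9.62 CPM in the high and 100.1 in the low wells of replicate 3. Postn went the other way, with 29.4 and 57.7 CPM in the high wells against 9.95 and 12.5 in the low wells. The part of these transcripts in the results was not tested.

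The same rule in BME, on plates that the choice of wells in Collagen I did not use, gave 201 high and 201 low wells, and 656 of 9839 tested genes (6.67%) were called, 395 higher (4.01%) and 261 lower (2.65%). Of the 373 Collagen I calls that were also tested in BME, 356 had the same sign there (95.4%), compared with 68.9% of all 4590 genes tested in both. In both matrices 177 genes were called in the same direction, which is 47.5% of the Collagen I calls and 37.1% of the 477 BME calls. Zfp36 had log2 fold changes of 1.95 in Collagen I and 1.83 in BME, Junb 1.00 and 1.34, Actg1 0.51 and 0.51, and Ube2c -2.27 and -1.20, all of them called in both. Klf6, at 0.38 in BME, and Nr4a1, at 0.92, did not pass there. The G2/M list held 29 lower genes of 35 in BME, with a median of -0.95, whereas of 31 S-phase genes 1 was lower (median -0.26).

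**Figure D5:**
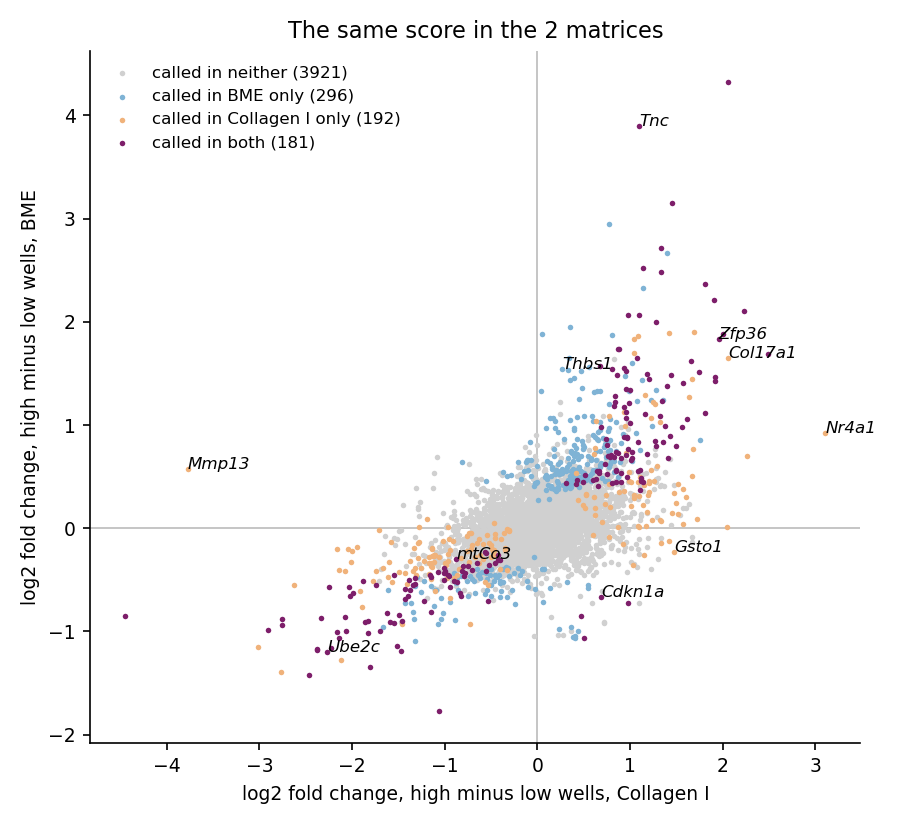
Log2 fold change between high and low wells in Collagen I (horizontal) and in BME (vertical) for the 4590 genes tested in both, coloured by whether they were called in neither, 1 or both. Of the 181 genes called in both, 177 lie in the quadrants of equal sign, and Tnc, Mmp13, Cdkn1a and Gsto1 are labelled among those whose change differed between the matrices.

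The test of the difference between the matrices called 16 of 10402 genes (0.154%), 11 with a higher (0.106%) and 5 with a lower (0.0481%) log2 fold change in Collagen I. Each matrix sat on its own plates, and the BME sums were deeper and their high wells had lower scores. Matrix, plate and depth therefore cannot be told apart in these differences. Cdkn1a, the p21 inhibitor of cyclin-dependent kinases, had 365.7 and 452.3 CPM in the high wells of Collagen I and 238.7 and 246.0 in the low wells. In BME it had 105.0, 69.1 and 68.1 in the high wells and 192.9, 80.9 and 109.2 in the low wells. It was thus higher in Collagen I (0.68 ± 0.20) and lower in BME (-0.66 ± 0.14), a difference of 1.34 ± 0.24 (adjusted p = 0.0052). Gsto1, a glutathione transferase, was higher by 1.48 ± 0.31 in Collagen I and had -0.23 ± 0.12 in BME, a difference of 1.71 ± 0.30 (adjusted p = 0.0052). Tnc was higher in both, by 1.10 and by 3.90, from 1.42 to 4.97 CPM in the low wells of BME (difference -2.80 ± 0.44, adjusted p = 0.0052). Without replicate 3 of Collagen I, 0 genes were called by edgeR (693 with an unadjusted p under 0.05), and without replicate 1 there was 1 gene. DESeq2 called 10 genes and limma-voom 0 (485 with an unadjusted p under 0.05). In simulated data of this depth the test recovered 8% of 2-fold and 43% of 4-fold differences.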

How the data were processed

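Single cells of MMTV-PyMT organoids from 2 Collagen I and 3 BME plates were analysed. The deposited values are expected counts, that is transcripts per gene and well, which the authors estimated from the observed UMIs (molecular barcodes) with a saturation formula, without normalization between wells or plates. The submitters' processing notes name BWA and mm10, and their versions are not given in sources used here. The labels describe UMIs of 4 bases, but 6 bases gave back 98.9% to 99.8% of the values. Plates held 1091410 and 1631981 counts in Collagen I and 9077590 to 10911740 in BME. ERCC spike-in rows were dropped (8.07% and 8.18% of counts in Collagen I, 2.31% to 2.68% in BME), and wells with over 2000 counts and under 8000 genes were kept. The number of wells and their depth limit the precision, and no doublet caller was run; leaving out the 5% of wells with most counts was tried instead.

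Counts were summed per plate and score group (207843 to 402168 per sum in Collagen I), rounded, filtered with filterByExpr and compared with edgeR 4.0.16 (R 4.3.3; TMM, robust quasi-likelihood test, plate as block, Benjamini-Hochberg adjusted p under 0.05). The score genes were left out of the tested table. The SE was obtained as the absolute log2 value over the root of F. The plate pairs the groups, since both come from it, and the deviations of paired sums correlated with 0.175 in Collagen I and 0.387, 0.163 and 0.0912 in BME. In simulated data with 200 changed genes, 50% of 2-fold and 74% of 4-fold changes were recovered in Collagen I, with 9 false calls among 4242 genes.

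Members and gene lists were chosen with earlier results of these data known. The rule for named genes takes the score genes, the 10 largest changes in each direction (adjusted p under 0.05, the same direction in both plates, at least 50 CPM), up to 4 genes per list with the smallest p, and up to 5 in each direction for the difference between the matrices. It gives 103 tested genes, of which some are not reported here. Further members of a list were named after their values were seen. Alternatives were DESeq2 1.42.0, limma-voom (limma 3.58.1), other size factors, no filter, the saturation correction undone, no plate block, other groupings of wells, and each plate left out. Leaving out wells with over 1000 ERCC counts and grouping by well number were chosen after seeing the data.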

Additional observations from a re-analysis of the deposited data

Results flagged for a closer look

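The difference between high and low wells was itself different between the matrices for 16 genes (interaction of score group and matrix, edgeR, adjusted p under 0.05, 16 of 10402 genes). Its log2 value, Collagen I minus BME, was 1.34 for Cdkn1a and 1.71 for Gsto1. It was -2.80 for Tnc, -4.42 for Mmp13, -1.28 for Thbs1 and -0.59 for mtCo3. In all these values matrix, plate and depth cannot be told apart. For Mmp13 most counts in the low wells of Collagen I came from 1 well in each plate, as described above. Thbs1, thrombospondin 1, had 182.9 and 307.9 against 196.4 and 175.1 CPM in Collagen I and did not pass there (adjusted p = 0.584, edgeR), whereas in BME it was higher by 1.54.

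For 8 other genes the difference was 1.30 for Kcnq1ot1, 1.42 for Grk4, 1.31 for A630089N07Rik, 1.20 for Gm17821, 1.43 for A130077B15Rik, 1.55 for Vmn2r55, 1.70 for Gm20300 and -0.67 for Mir5109. The other 2 of the 16 are not reported here. Vmn2r55 is a member of a large receptor gene family, and how reads that members may share were counted was not examined. Kcnq1ot1, an antisense RNA, was higher in the high wells of Collagen I (5130 and 4508 against 3717 and 3035 CPM) and lower in those of BME (2620, 3242 and 1886 against 5592, 5821 and 2598 CPM).

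In the ERCC spike-ins, which enter no comparison, 6 of 111 immediate-early-high wells of Collagen I had over 1000 counts, compared with 1 of 111 low wells and 2 of 223 middle wells. The highest had 10417 and 17842 ERCC counts in replicates 1 and 3, against a median of 65.6 and 65.1 in the high wells. Without such wells 329 genes were called.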

How the results depend on the processing

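The sums held 207843 to 402168 counts in Collagen I and 1648166 to 2152263 in BME, and 4606 and 9839 genes had enough counts to be tested. Between high and low wells of Collagen I, 378 genes were called (194 higher, 184 lower). DESeq2 called 18 (7 higher, 11 lower). With no replicate block, that is without pairing by plate, 185 were called (95 and 90). Grouping wells within classes of total counts gave 164 (82 and 82), of basal markers 102 (40 and 62), and of S and G2/M genes 47 (20 and 27). Keeping wells under 10% chromosome M counts gave 96 (44 and 52), leaving out the top 5% of wells by counts 50 (20 and 30), groups of 33% of wells by score 251 with 111 lower, a score without Fos 162 (79 and 83) and without Egr1 67 (39 and 28). Fitting all 5 plates together gave 165 (59 and 106). Thinning to 2000 counts gave 0 and groups of 50% of wells 0 in edgeR, in either direction, with 222 and 739 genes at an unadjusted p under 0.05. Leaving out 1 Collagen I plate, where the lone plate is assumed to vary like the BME plates, gave 10 to 27 calls (2 to 11 higher, 8 to 16 lower). The cause of these changes was not tested. The other 12 alternatives moved the count by less than 1.5 times.

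In BME, 656 genes were called (395 and 261). DESeq2 called 206 (139 and 67), no filter 1045 (475 lower), no replicate block 149 (132 and 17), thinning 13 (10 and 3), balanced counts 349 (246 and 103), balanced basal markers 203 (121 and 82), balanced cycling genes 371 (106 lower) and 50% of wells per group 413 lower. Without 1 plate there were 225 to 734 (156 to 435 higher, 69 to 299 lower). For the difference between the matrices (16, with 11 and 5), RLE gave 3 lower, DESeq2 10 (1 lower), limma-voom 0, 0 and 0, no filter 43 (27 lower), thinning 8 (4 higher), balanced counts 6 (1 higher), balanced basal markers 7 higher and 16 lower, balanced cycling genes 28 (20 lower) and 33% of wells 6 higher and 15 lower. Without 1 plate it ranged from 0 to 32 (0 to 18 and 0 to 14).

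For score genes left out of the score, no replicate block gave 3.69 for Fosb and 2.09 for Jun in Collagen I and 1.33 for Egr1 in BME, none of which passed. Thinning gave 0.44 for Egr1 and 1.39 for Jun in BME, which did not pass, and no value for Fosb.

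Of 2671 values of the 103 named genes over 27 alternatives, 35 changed sign, 4 of them in genes that had been called. With basal markers balanced, Adamts1 was at -0.11, Igfbp3 at -0.56, Tnc at -0.16, Col1a2 at 0.65 and Lars2 at -0.23. With cycling genes balanced, Col1a1 was at 0.0365, Col1a2 at 0.62 and Lars2 at -0.12. Under 10% chromosome M counts, Igfbp3 was at -0.0361, Col1a1 at 0.57, Cxcl1 at 0.12, Lars2 at -0.11 and Mir5109 at 0.12, and under 10% of genes with the prefix mt-, Mir5109 was at 0.0866. Thinning gave Ets1 -0.10 and Lars2 -0.0788. Col1a2 had 0.57 with 33% of wells per group, 1.21 with 50%, 0.46 without Egr1 and 0.90 without Jun in the score. Lars2 had -0.11 with balanced counts, -0.0291 without the top 5%, -0.0406 with 33% of wells per group, -0.22 with 50%, -0.23, -0.0521, -0.0567 and -0.33 without Fos, Fosb, Egr1 and Jun in the score, and -0.0817 balanced by well number. Without Collagen I replicate 1, Ets1 was at -0.15, Lars2 at -0.31 and Tgfa at -0.21, and without replicate 3, Col1a1 was at 0.15, Mir5109 at 0.0516 and Thbs1 at -0.16.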
